A study of Mus musculus with 16 samples.

Results

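The genes described here are 42 enzymes and enzyme subunits of nitrogen disposal in the liver: the urea cycle and the breakdown of amino acids. They were chosen by name from a list grouped by pathway, and all 42 were found among the 25803 genes of the joined count tables. All 42 also passed the filter on low counts, which 14488 genes passed. Expression was measured by bulk RNA sequencing of liver from male mice kept for 12 weeks on a high-fat diet, in 16 libraries. There were 4 groups of 4: fasted control and fasted LKO (CPT1a LKO, a liver knockout of Cpt1a), taken after a 16 h fast, and refed control and refed LKO, taken after a 16 h fast and 6 h of refeeding. Every group had the same diet, sex and fast. The labels name the controls only as Control, and the promoter or Cre behind the knockout, the alleles that controls carry, the strain and the age are not given in the sources used here. Libraries are named as in the deposited tables: fasted control comprises S40, S41, S42 and S43, and fasted LKO S44, S45, S46 and S47. Refed control comprises S48, S49, S50 and S51, and refed LKO S52, S53, S54 and S55.

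When an amino acid is used as fuel or for glucose, its nitrogen is first moved by transaminases to alpha-ketoglutarate or released as ammonia. Ammonia is toxic, and periportal hepatocytes convert it through the urea cycle into urea, which the kidney excretes. The carbon skeletons enter the citric acid cycle, gluconeogenesis or ketone bodies, so these pathways are tied to the fasted state, and the first enzyme of several of them is induced by glucocorticoid and glucagon. Cpt1a encodes the carnitine palmitoyltransferase that admits long-chain fatty acids to the mitochondrion for oxidation. Both Cps1 and Nags, at the entry of the urea cycle, act in that same compartment.

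The targeted gene followed the labels. Cpt1a averaged 487 ± 83.2 CPM (counts scaled to a common library total) in fasted control and 101 ± 17.3 in fasted LKO. In the refed groups it averaged 457 ± 137 and 54.2 ± 16.6 (SD, n = 4). Library totals lay between 14721601 and 24618230 counts. The 7 tested of 8 listed hepatocyte markers, Alb among them, summed to 61478 to 86915 CPM over the libraries. The 42 genes together took 2.18% to 3.92% of a library's counts. Several libraries stood apart from their group across these genes. S44 was the lowest fasted LKO library for 34 of the 42, where it was the lowest for 26.7% of all genes. S49 was the highest refed control library for 32 of the 42, against 25.8% of all genes. S41 was the lowest fasted control library for 30 (23.5% of all genes) and S52 the highest refed LKO library for 30 (27.4%). S42 was the highest fasted control library for 25 (25.4%) and S50 the lowest refed control library for 24 (22.4%). Without S41 the test named below called 10 of the 42 in the fasted and 2 in the refed comparison of genotypes, and 4 and 3 on refeeding of control and LKO mice. Without S52 these numbers were 10, 3, 5 and 4.

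**Figure D1:**
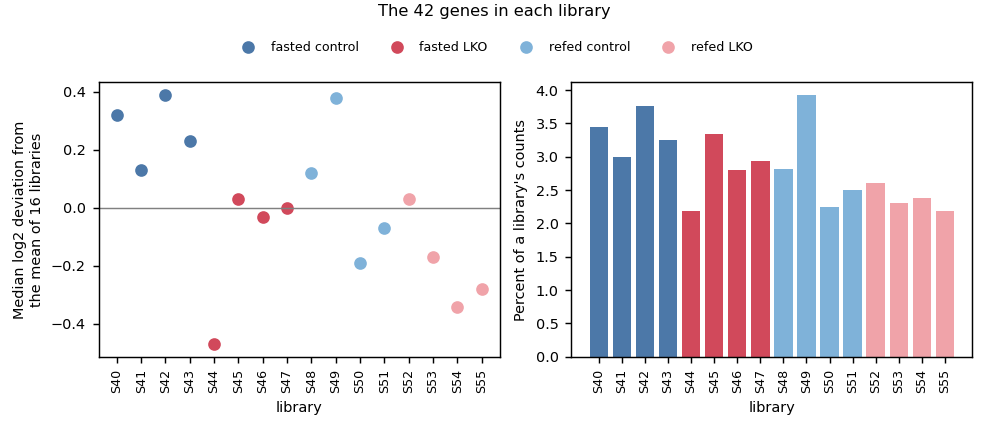
The 42 genes in each of the 16 libraries, coloured by group. The left panel plots the median log2 deviation of the 42 genes from their mean over all libraries, and the right panel the percent of a library's counts that fall in them. S44 lies lowest at −0.47 and S42 and S49 highest at 0.39 and 0.38.

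The 42 genes differ widely in abundance. Per kilobase of gene length in fasted control, the most abundant was Gnmt (glycine N-methyltransferase) at 1720.0 CPM per kb. Next came Hpd, of tyrosine breakdown, at 1410.0, Mat1a, the hepatic S-adenosylmethionine synthetase, at 1260.0, and Ass1 of the urea cycle at 1070.0. The least abundant were Sdsl at 13.1 and Mccc1, a subunit of the leucine pathway's carboxylase, at 3.86 CPM per kb. This order rests on the gene lengths of the deposited tables. Without that scaling, Bhmt (5354 CPM) and Mat1a (4370 CPM) lay above Gnmt (2080 CPM) in fasted control. Mccc1 (42.3 CPM) then lay above Sdsl (19.6 CPM). Methionine and sulfur enzymes summed to 13169.7 to 17454 CPM in the fasted control libraries, the 6 urea cycle genes to 4693 to 6856 CPM, and with the 4 tyrosine genes (4907 to 6155 CPM) these pathways held most of the set's counts.

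Loss of Cpt1a in the fasted liver went with lower levels across most of the set. Of the 42 genes, 39 were lower in fasted LKO than in fasted control, where 47.5% of all genes tested were lower. Their median log2 fold change was −0.36, against 0.02 over all genes. Every adjusted p below comes from the quasi-likelihood test of edgeR, adjusted over all genes by the Benjamini-Hochberg method. At an adjusted p under 0.05, 9 of the 42 changed, where 12.2% of all genes did. Of these, 7 fell (Prodh, Haao, Gls2, Gpt, Uroc1, Amdhd1 and Ivd), against 6.48% of all genes, and 2 rose (Gpt2 and Tdo2), against 5.75%. A further 17 of the 42 had an unadjusted p under 0.05 without passing, which makes 26 in all (3868 of all 14488 genes). The 2 groups did not overlap for 16 genes in the lower direction, where 8.57% of all genes were so separated, and for 1 gene, Gpt2, in the higher direction, where 8.30% were. In a bulk sample, fewer cells of a type cannot be told apart from less RNA per cell, and this holds for every value below. The libraries are separate samples per the labels, but nothing says that each came from its own mouse. If some did not, p-values would measure only the spread between these samples.

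The direction was the same for most genes under each scaling and tool tried, with 37 to 40 of 42 lower. Without S44, 34 of the 42 were lower and 6 were called (Prodh, Haao, Gls2, Gpt, Gpt2 and Tdo2). The count was 5 without S40 or without S43, 17 without S49, 18 with DESeq2, and 14 with limma-voom or with genes under a mean of 5 CPM left out. The authors' deposited table lists 20 of the 42 at an adjusted p under 0.05, 2 higher and 18 lower, and all 9 called here are among them.

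**Figure D2:**
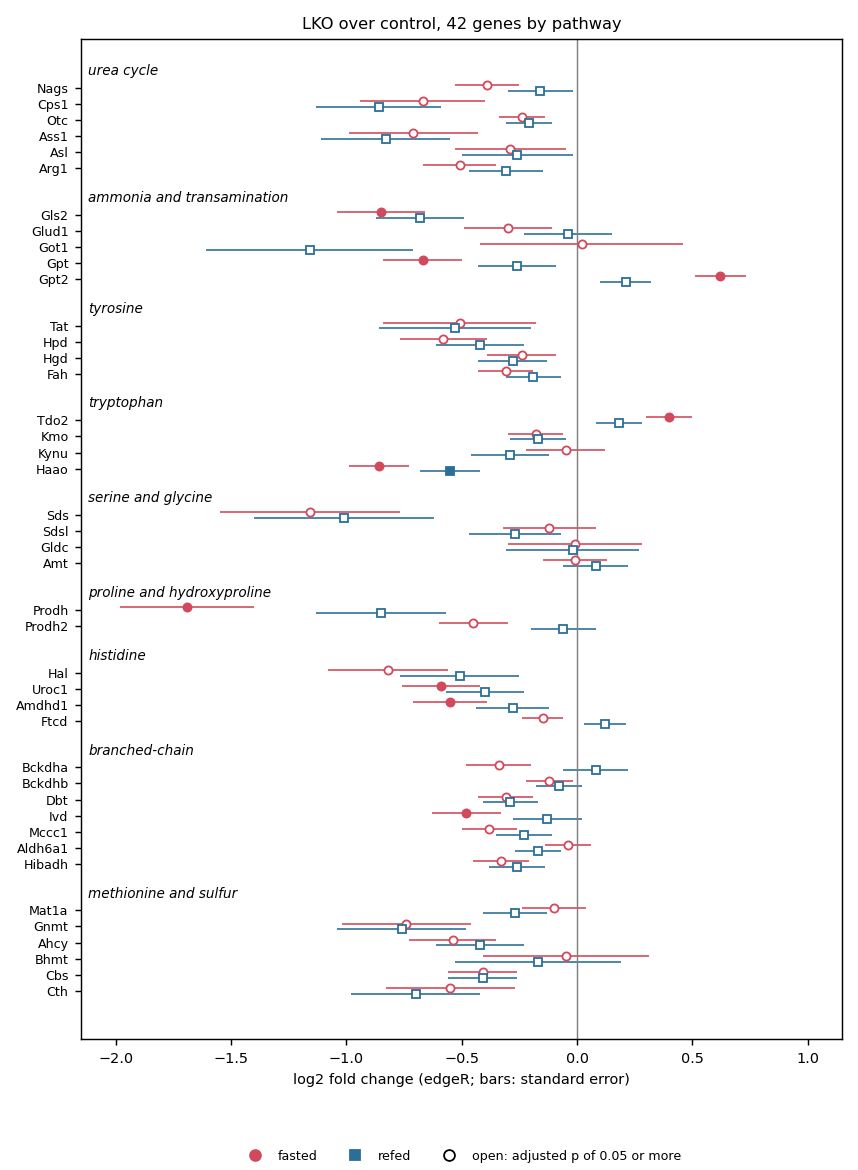
Log2 fold change of LKO over control for each of the 42 genes, ordered by pathway, in the fasted (circles) and refed (squares) state, with bars for the standard error. Filled symbols passed an adjusted p of 0.05, and 39 of the 42 circles and 37 of the 42 squares lie left of zero.

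Prodh showed the largest change of the set. It encodes proline dehydrogenase, the mitochondrial enzyme that opens proline breakdown (ENSMUSG00000003526, chromosome 16 from 17878221 to 17908067). Gene positions here and below are those of the deposited tables, on mm39 per the submitters' processing notes. The fasted control libraries held 372, 322, 403 and 323 CPM. The fasted LKO libraries held 59.2, 185, 68.4 and 128 CPM, so the highest of them lay well under the lowest control. Prodh fell from 355 ± 39.4 to 110.1 ± 58.6 CPM (SD, n = 4), to 0.31 of the control level (log2 fold change −1.69, SE 0.29, adjusted p = 0.00152). After refeeding the controls were at 265, 368, 198 and 276 CPM and the LKO libraries at 192, 149, 142 and 133 CPM. These groups did not overlap either, but the difference did not pass (log2 fold change −0.85, SE 0.28, adjusted p = 0.105). Prodh shares 11276 bases of its span with Dgcr6 on the opposite strand, and whether the counting used strand is not given in the sources used here. Reads of the 2 genes may therefore be mixed. Over all libraries Dgcr6 averaged about 1050 counts a library against 3990 for Prodh. In the fasted LKO libraries Prodh held 1186, 3277, 1220 and 2053 counts. Prodh2, the related enzyme of hydroxyproline breakdown, stood at 407 ± 20.6 CPM in fasted control and 299 ± 56.2 in fasted LKO (log2 fold change −0.45, SE 0.15, adjusted p = 0.0551). Its fasted groups did not overlap, and its refed means were 364 ± 75.7 and 350.3 ± 38.6 CPM.

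In tryptophan breakdown the entry enzyme and a late enzyme moved in opposite directions. Tdo2 (tryptophan dioxygenase, ENSMUSG00000028011, chromosome 3 from 81864397 to 81883509) opens the pathway. Its levels were 1236, 1459, 1611 and 1231 CPM in fasted control and 1859, 1906, 2006 and 1552 CPM in fasted LKO. The lowest LKO library, S47, lay below the highest control, S42. Tdo2 rose to 1.32 times the control level (log2 fold change 0.40, SE 0.10, adjusted p = 0.0188), a call lost without S40 (0.0640), S43 (0.0638) or S46 (0.0594) and with only the 8 fasted libraries (0.0787). When refed, Tdo2 was at 1484, 1389, 1455 and 1359 CPM in control and at 1741, 1488, 1566 and 1637 CPM in LKO. Every refed LKO library lay above every refed control, although S53 and S48 were close, and the difference did not pass (log2 fold change 0.18, SE 0.10, adjusted p = 0.388). Haao (ENSMUSG00000000673, chromosome 17 from 84138585 to 84155392) encodes the dioxygenase of 3-hydroxyanthranilate, on the branch that leads to NAD. It was at 631, 552, 585 and 577 CPM in fasted control and at 272, 419, 291 and 312 CPM in fasted LKO, with a wide gap between the groups (log2 fold change −0.86, SE 0.13, adjusted p = 0.000812). Haao was also the only one of the 42 called in the refed state, at 533, 579, 423 and 466 against 389.9, 346, 326 and 304 CPM (log2 fold change −0.55, SE 0.13, adjusted p = 0.0302). The groups again did not overlap. Of the 42 genes, Kmo and Kynu act between the entry and Haao and had small fasted log2 differences (−0.18, SE 0.12, and −0.05, SE 0.17). Afmid, a gene of the same route outside the 42, fell in fasted LKO (log2 fold change −1.24, SE 0.24, adjusted p = 0.0039). Kmo overlaps Fh1 on the opposite strand over 5255 bases (3550.0 counts a library on average against 5590.0), so its level is uncertain.

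The enzymes that release or transfer amino nitrogen split in the same way. Gls2 (ENSMUSG00000044005, chromosome 10 from 128030326 to 128045873) encodes the liver glutaminase, which frees ammonia from glutamine in periportal hepatocytes. Fasted control libraries were at 474, 259, 424 and 376 CPM and fasted LKO libraries at 162, 199, 234 and 254 CPM. Control S41 lay close to the highest LKO library, S47, and the groups touched but did not overlap (log2 fold change −0.85, SE 0.19, adjusted p = 0.00841). In the refed state Gls2 stood at 282, 356, 239 and 258 against 229, 170.1, 154 and 157 CPM, again without overlap and just short of the threshold (log2 fold change −0.68, SE 0.19, adjusted p = 0.0572). Alanine aminotransferase, which passes alanine's nitrogen to alpha-ketoglutarate and yields pyruvate, is encoded by 2 genes. Gpt (ENSMUSG00000022546, chromosome 15 from 76579916 to 76583886), the cytosolic form, was at 632, 533, 607 and 616 CPM in fasted control and at 245, 481, 361 and 414 CPM in fasted LKO. The groups did not overlap, and Gpt fell (log2 fold change −0.67, SE 0.17, adjusted p = 0.0189), a call lost without S46 (0.0504). Gpt2 (ENSMUSG00000031700, chromosome 8 from 86219205 to 86254189), the mitochondrial form, was at 410.5, 406, 449 and 446 CPM in fasted control and at 514, 659, 762 and 690.2 CPM in fasted LKO. Here every LKO library lay above every control, and Gpt2 rose to 1.53 times the control level (log2 fold change 0.62, SE 0.11, adjusted p = 0.00238). Scaled by gene length, the mean level of Gpt was above that of Gpt2 in fasted control (203 against 75.8 CPM per kb). In fasted LKO the 2 were close (128 against 116 CPM per kb). Without that scaling the means were 597 CPM for Gpt and 428 CPM for Gpt2 in fasted control. They were 375 and 656 CPM in fasted LKO, where the order was reversed. In the refed state the differences between genotypes were smaller, −0.26 (SE 0.17) for Gpt and 0.21 (SE 0.11) for Gpt2. Of the other two genes of this group, Glud1 (glutamate dehydrogenase) was −0.30 in the fasted comparison (SE 0.19) and Got1, the cytosolic aspartate aminotransferase, 0.02 (SE 0.44).

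**Figure D3:**
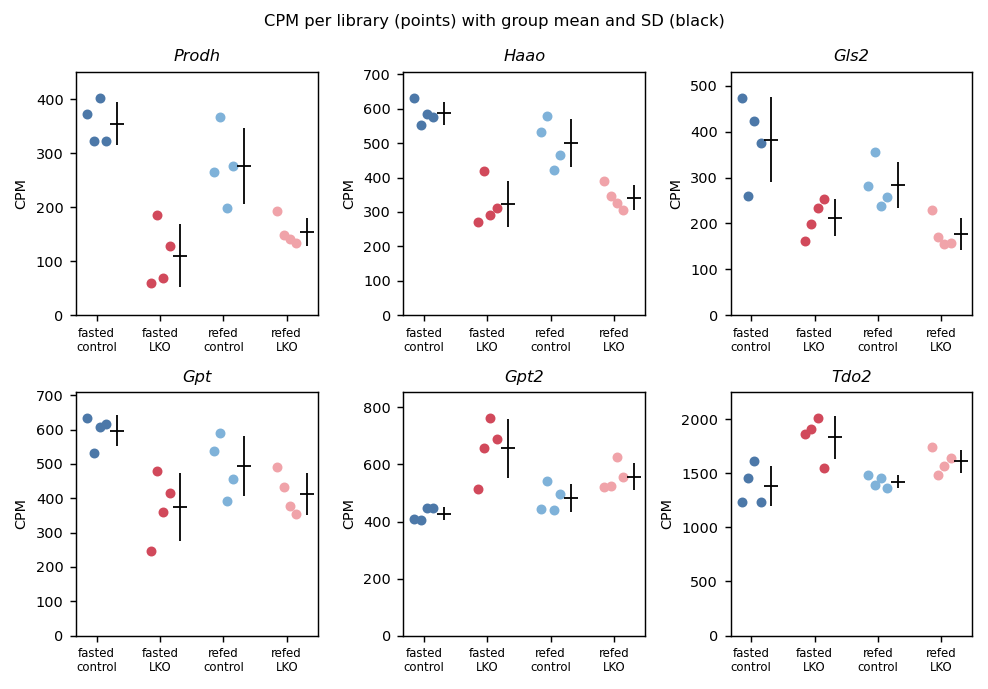
Scaled counts (CPM) of Prodh, Haao, Gls2, Gpt, Gpt2 and Tdo2 in each library (points, by group) with the group mean and SD in black. The fasted LKO points lie below all fasted control points for Prodh, Haao, Gls2 and Gpt and above them for Gpt2, while S47 overlaps the controls for Tdo2.

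The stretch of DNA just before the transcription start is shown for the 2 genes that fell with the lowest adjusted p in the fasted comparison, Prodh and Haao, and for the 2 that rose, Gpt2 and Tdo2. Each line gives the 250 bases before the RefSeq start, 5′ to 3′ on the gene's strand, in build GRCm38.p6, which differs from the build of the counts. Capitals mark a TATAAA match, which in Tdo2 runs from base −229 to −224, counted back from the start.
Prodh (chr16:18089191-18089440, - strand): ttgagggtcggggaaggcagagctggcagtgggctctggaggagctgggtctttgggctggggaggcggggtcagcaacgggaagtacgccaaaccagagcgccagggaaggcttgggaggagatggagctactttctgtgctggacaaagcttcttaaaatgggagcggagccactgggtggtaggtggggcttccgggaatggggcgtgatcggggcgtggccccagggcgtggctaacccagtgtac
Haao (chr17:83846791-83847040, - strand): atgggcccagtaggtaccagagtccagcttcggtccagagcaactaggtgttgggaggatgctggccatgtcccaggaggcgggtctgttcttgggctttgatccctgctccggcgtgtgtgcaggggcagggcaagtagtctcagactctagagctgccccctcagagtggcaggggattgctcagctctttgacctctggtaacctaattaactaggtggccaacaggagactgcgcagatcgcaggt
Gpt2 (chr8:85492326-85492575, + strand): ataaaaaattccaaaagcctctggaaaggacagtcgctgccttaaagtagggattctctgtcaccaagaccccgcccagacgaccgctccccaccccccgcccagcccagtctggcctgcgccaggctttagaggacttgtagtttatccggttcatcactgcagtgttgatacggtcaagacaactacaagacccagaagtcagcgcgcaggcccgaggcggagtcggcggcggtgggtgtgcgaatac
Tdo2 (chr3:81975729-81975978, - strand): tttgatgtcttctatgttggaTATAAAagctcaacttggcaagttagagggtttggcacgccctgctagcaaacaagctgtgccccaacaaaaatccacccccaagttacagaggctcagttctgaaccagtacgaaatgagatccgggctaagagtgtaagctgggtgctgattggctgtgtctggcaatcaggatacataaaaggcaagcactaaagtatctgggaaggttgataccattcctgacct
The Prodh stretch is the richest in G and C of the 4, at 63.2%, followed by Haao at 58.4%, Gpt2 at 57.6% and Tdo2 at 46.4%. RefSeq promoters were at hand for 31 of the 42 genes, 33 promoters in all, and windows of 300 bases were searched on both strands. TGACGTCA, the full cyclic AMP response element, was in none of the 31 genes' promoters and in 1.80% of all 32544. TTGCGCAA, bound by C/EBP factors, was in none (0.184% of all), as was CAAAGTCCA, an HNF4A motif (0.479%). The palindromic glucocorticoid element and the DR1 repeat were in none of the 31, and in 0.00922% and 0.0399% of all. TGTTTAC, a forkhead motif, was in Hibadh alone (3.66% of all). The shorter TGACG, which lies inside the full element, was in Ftcd and Nags (20.9% of all), and TATAAA was in Ftcd, Hal, Hgd and Tdo2 (13.6% of all). Absence of these letters from this window says nothing of the factors.

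The 6 urea cycle genes were each lower in LKO in both states, and none passed the test. Cps1 (carbamoyl phosphate synthetase, ENSMUSG00000025991, chromosome 1 from 67162185 to 67270418) catalyses the rate-limiting entry step. It was at 1129, 888, 1479 and 1061 CPM in fasted control and at 493, 710.1, 1038 and 621 CPM in fasted LKO (log2 fold change −0.67, SE 0.27, adjusted p = 0.118). The refed controls held 1455, 2278, 1074 and 904 CPM and the refed LKO libraries 991, 757, 595 and 809.5 CPM (log2 fold change −0.86, SE 0.27, adjusted p = 0.0902). S49 held the highest level of all libraries, and without it the refed difference was log2 fold change −0.54, SE 0.24, adjusted p = 0.258. The fasted groups overlapped through S46. Ass1 (argininosuccinate synthase) followed the same pattern. In the fasted state it was at 3238, 1840.3, 2966 and 2278 against 1261, 1721, 1714 and 1620.4 CPM, groups that did not overlap (log2 fold change −0.71, SE 0.28, adjusted p = 0.117). Refed, it was at 2063, 3455, 1192 and 1324 against 1607, 984, 980.3 and 959 CPM (log2 fold change −0.83, SE 0.28, adjusted p = 0.12). Without S49 the refed difference was log2 fold change −0.43, SE 0.23, adjusted p = 0.367, and Ass1 was then called lower in the fasted comparison (log2 fold change −0.71, SE 0.22, adjusted p = 0.0418). Arg1 (arginase), which releases urea, averaged 1211 ± 113 CPM in fasted control and 853 ± 204 in fasted LKO and came closest to the threshold (log2 fold change −0.51, SE 0.16, adjusted p = 0.0519). Without S49 Arg1 was called as well (log2 fold change −0.51, SE 0.15, adjusted p = 0.0395), and the refed difference of Asl had the opposite sign (log2 fold change 0.06, SE 0.19, adjusted p = 0.916). The fasted log2 differences of Nags, Otc and Asl were −0.39 (SE 0.14), −0.24 (SE 0.10) and −0.29 (SE 0.24). Nags makes the activator of Cps1, Otc joins carbamoyl phosphate to ornithine, and Asl splits argininosuccinate. The 6 genes summed to 4693 to 6856 CPM in fasted control, 3001 to 4594 in fasted LKO, 3915 to 8328 in refed control and 2974 to 4514 in refed LKO. The fasted ranges of this sum did not overlap.

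Histidine breakdown had 2 of its 4 genes called lower in fasted LKO. Uroc1 (urocanase) was at 545, 479, 594 and 542 CPM in fasted control and at 250.5, 425, 301 and 461 CPM in fasted LKO (log2 fold change −0.59, SE 0.17, adjusted p = 0.0298). Amdhd1, which acts on the next intermediate, was at 269, 232, 264 and 295 against 162, 152, 186 and 223 CPM (log2 fold change −0.55, SE 0.16, adjusted p = 0.033). Neither gene's fasted groups overlapped. Both calls were lost without S44 (0.0874 and 0.0985), and also without S40, S42, S43 or S46 (0.0593 to 0.0908 over both genes). Amdhd1 was not called without S45 either (0.0719), and Uroc1 with only the 8 fasted libraries (0.0709). Hal, the lyase that opens the pathway, averaged 427 ± 93.6 CPM in fasted control and 243 ± 46.8 in fasted LKO and lay at the threshold (log2 fold change −0.82, SE 0.26, adjusted p = 0.0506). Ftcd, the last enzyme, was −0.15 (SE 0.09).

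In branched-chain amino acid breakdown all 7 genes were lower in fasted LKO and only Ivd, the dehydrogenase of isovaleryl-CoA in leucine breakdown, was called. Ivd was at 282, 225, 269.5 and 241 CPM in fasted control and at 130.2, 209, 173 and 218 CPM in fasted LKO, without overlap (log2 fold change −0.48, SE 0.15, adjusted p = 0.0431). Its call was lost when S40, S42, S43, S44, S46, S48, S51, S53 or S54 was left out (up to 0.118, without S44), under upper quartile scaling (0.0509) and with only the 8 fasted libraries (0.0832). The 3 genes of the branched-chain ketoacid dehydrogenase, the committed step, were at −0.34 (Bckdha), −0.12 (Bckdhb) and −0.31 (Dbt) on the log2 scale. Mccc1, in leucine breakdown, was at −0.38 (SE 0.12, adjusted p = 0.055). Hibadh and Aldh6a1, of valine breakdown, were at −0.33 and −0.04. In the refed state 6 of the 7 were lower and none was called.

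Tyrosine breakdown was lower in LKO in 4 of 4 genes in both states, with none called. Hpd (4-hydroxyphenylpyruvate dioxygenase) stood at 3009.9 ± 354 CPM in fasted control and 2019 ± 383 in fasted LKO, and these groups did not overlap (log2 fold change −0.58, SE 0.19, adjusted p = 0.0539). Its span overlaps Psmd9 on the opposite strand, which averaged 1130.0 counts against 41800 for Hpd. Fah, which completes the pathway, did not overlap either (−0.31, SE 0.12, adjusted p = 0.0911). Tat, the aminotransferase that opens it and a classic glucocorticoid target, varied within groups, from 619 to 1282 CPM in fasted control and from 674 to 2099.9 CPM in refed control (−0.51, SE 0.33, in the fasted comparison).

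Methionine and sulfur genes were lower in 6 of 6 in both states, with none called. Gnmt, which consumes excess S-adenosylmethionine, averaged 2080.3 ± 315 CPM in fasted control and 1246 ± 325 in fasted LKO (log2 fold change −0.74, SE 0.28, adjusted p = 0.0931). Ahcy, which removes the inhibitory product of methylation, was at −0.54 (SE 0.19, adjusted p = 0.0754). Cbs and Cth, the enzymes that carry sulfur from homocysteine to cysteine, were at −0.41 (SE 0.15) and −0.55 (SE 0.28). The fasted groups of Gnmt, Ahcy and Cbs did not overlap. Bhmt, which remethylates homocysteine with betaine, spread from 2170.1 CPM in S44 to 8234 CPM in S45 within fasted LKO alone, and its difference of −0.05 (SE 0.36) was small beside that spread. Mat1a was at −0.10 (SE 0.14).

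Among serine and glycine genes, Sds stood apart by size but not by test. It encodes the serine dehydratase that turns serine into pyruvate for gluconeogenesis. It was at 140.1, 96.5, 175 and 141 CPM in fasted control and at 41.6, 39.7, 94.4 and 71.7 CPM in fasted LKO, with no overlap (log2 fold change −1.16, SE 0.39, adjusted p = 0.0602). Its refed levels were 118, 217, 55.2 and 75.9 against 86.8, 46.8, 34.7 and 62.3 CPM (log2 fold change −1.01, SE 0.39, adjusted p = 0.162). Sds overlaps Plbd2 on the opposite strand over 651 bases, and Plbd2 averaged more counts (2330.0 against 1670.0 a library), so its level is uncertain. Sdsl, its paralog, was at −0.12 (SE 0.20) in the fasted comparison. Gldc and Amt, subunits of the glycine cleavage system, were each at −0.01 (SE 0.29 and 0.14).

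After refeeding the genotype comparison gave the same direction for most genes but few calls. Of the 42, 37 were lower in refed LKO than in refed control (52.2% of all genes), with a median of −0.27 against −0.01 over all genes. The test called 1 of the 42, Haao, which was lower, where 3.63% of all genes were called, 1.35% lower and 2.28% higher, and 15 had an unadjusted p under 0.05 (2672 of all genes). Haao was not called without S48 (0.0898), S49 (0.0745), S53 (0.0673), S54 (0.0787) or S55 (0.0960). DESeq2 called 5 and a fit of the 8 refed libraries alone called 2. The authors' deposited table lists 4, all lower, with Haao among them. The groups did not overlap in the lower direction for Gls2, Haao, Prodh and Aldh6a1, where 5.03% of all genes were so separated. In the higher direction Tdo2 was the single such gene (6.70%). Without S49 the number lower was 32 and none of the 42 was called.

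Comparing the states, 36 of the 42 were lower in LKO in both, where 4088 of all 14488 genes were. In both states 2 (Gpt2 and Tdo2) were higher, and 4 (Got1, Amt, Ftcd and Bckdha) had opposite signs. The fasted and refed comparisons use different libraries. For 27 genes the refed difference was nearer zero, a count that was not taken over all genes. The difference between the states was itself tested as an interaction, and edgeR called none of the 42, where 0.538% of all genes were called, 0.311% toward higher and 0.228% toward lower levels in refed LKO. At an unadjusted p under 0.05 there were 3 of the 42 (2397 of all genes), and DESeq2 and limma-voom also called none. For Prodh the interaction was 0.84 (SE 0.39, adjusted p = 0.295), for Gpt 0.41 (SE 0.24, adjusted p = 0.417) and for Gpt2 −0.41 (SE 0.16, adjusted p = 0.204). A different effect in the refed state was thus not detectable for these genes with 4 libraries a group.

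In control mice most of these genes were lower after refeeding, and 4 were called. Of the 42, 32 were lower in refed than in fasted control (48.9% of all genes) with a median of −0.24, against 0.01 over all genes. The test called 4, all of them lower (15.4% of all genes were called, 7.65% lower and 7.79% higher): Amt, Amdhd1, Ftcd and Bckdha. Amt, the aminomethyltransferase of glycine cleavage (ENSMUSG00000032607, chromosome 9 from 108174052 to 108179501), was at 59.4, 57.9, 64.2 and 63.3 CPM in fasted control and at 36.5, 46.5, 37 and 48.6 CPM in refed control (log2 fold change −0.54, SE 0.14, adjusted p = 0.0177). Amdhd1 went from 269, 232, 264 and 295 CPM to 177, 182, 189 and 154 CPM (log2 fold change −0.59, SE 0.16, adjusted p = 0.0198). Ftcd, which passes a histidine-derived formimino group to folate, went from 658, 550.1, 596 and 589.7 to 510.4, 440.1, 473 and 532 CPM (log2 fold change −0.29, SE 0.09, adjusted p = 0.0464). Bckdha went from 103, 86.8, 99 and 82.7 to 64.1, 65.8, 63 and 81.3 CPM (log2 fold change −0.44, SE 0.14, adjusted p = 0.0394). No refed control library reached the lowest fasted control library for any of these 4 genes. The 4 and Fah were the 5 that did not overlap in the lower direction (10.1% of all genes), and Glud1 was the single gene in the higher direction (10.4%). Bckdha overlaps B3gnt8 on the opposite strand over 5155 bases, at 63.2 against 1370.0 counts a library on average.

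These 4 calls depended on single libraries. Amt was not called without S48 (0.0596) or S50 (0.0623), and Amdhd1 without S40 (0.0516) or S43 (0.0598). Bckdha lost its call without S40, S41, S42, S48, S49 or S50 (0.0511 to 0.120), and Ftcd without S40, S42, S43, S47, S48, S49, S50, S53 or S55 (0.0512 to 0.144), with no filter on low counts (0.0894) and with only the 8 control libraries (0.0545). The number called was 1 without S40, S48 or S50, 2 without S42 or S43, 7 without S49 and 7 with DESeq2. Of the 42, the authors' deposited table has 8 under an adjusted p of 0.05, 1 higher and 7 lower, with all 4 among them.

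**Figure D4:**
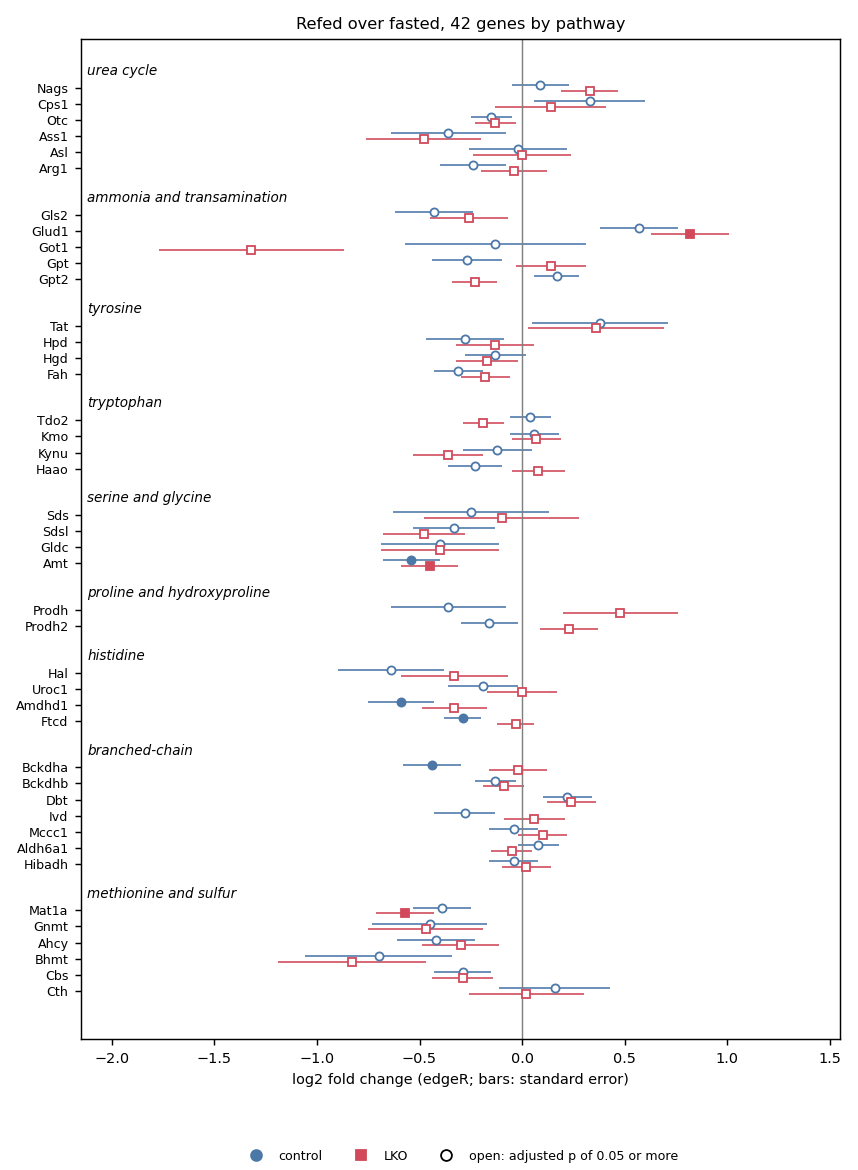
Log2 fold change of refed over fasted for each of the 42 genes in control (circles) and LKO (squares) mice, with bars for the standard error and filled symbols for an adjusted p under 0.05. Glud1 lies furthest right in both genotypes, at 0.57 and 0.82, and Amt is filled on the left in both.

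In LKO mice refeeding changed 3 of the 42 (18.1% of all genes in either direction). Glud1 rose (9.28% of all genes rose), and Mat1a and Amt fell (8.78% fell). Of the 42, 27 were lower in refed LKO than in fasted LKO, against 52.1% of all genes, with a median of −0.10 against −0.02. Glud1 (ENSMUSG00000021794, chromosome 14 from 34032684 to 34067222), the mitochondrial glutamate dehydrogenase that releases ammonia from glutamate, was at 509, 870.2, 428 and 751 CPM in fasted LKO and at 1322, 984, 1090.3 and 1136 CPM in refed LKO. Every refed library lay above every fasted library (log2 fold change 0.82, SE 0.19, adjusted p = 0.00691). In control mice Glud1 moved likewise from 616, 865, 869 and 793 to 1229, 1349, 1149 and 940.2 CPM and just missed the threshold (log2 fold change 0.57, SE 0.19, adjusted p = 0.0532). Mat1a (ENSMUSG00000037798, chromosome 14 from 40826992 to 40846369) was at 3528, 4613, 4331 and 3857 CPM in fasted LKO and at 2509, 2687, 3193 and 2607 CPM in refed LKO, also without overlap (log2 fold change −0.57, SE 0.14, adjusted p = 0.00913). Its change in control mice was −0.39 (SE 0.14, adjusted p = 0.0632). Amt went from 44.1, 68.8, 53.7 and 76.5 to 42.7, 42.4, 49.7 and 42.9 CPM, groups that overlapped (log2 fold change −0.45, SE 0.14, adjusted p = 0.035), and was not called without S45, S47, S52, S53 or S55 (0.0818 to 0.120) or with only the 8 LKO libraries (0.0816). Got1 had the largest estimate, from 82.3, 78.9, 229 and 135 CPM in fasted LKO to 60.5, 54, 50.7 and 46 CPM in refed LKO, and did not pass (log2 fold change −1.32, SE 0.45, adjusted p = 0.0541). The fasted LKO libraries were widely spread for Got1, while the refed ones lay together.

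The count called in LKO mice was 6 without S44 and 5 without S45 or S49. The authors' deposited table lists 5, 1 higher and 4 lower, of which 2 were called here. Besides Glud1, Dbt did not overlap in the higher direction (10.6% of all genes). Got1, Sdsl, Mat1a and Cbs did not in the lower direction (9.95%). The 2 refeeding comparisons use different libraries from each other, but each shares its fasted group with the fasted genotype comparison and its refed group with the refed one.

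**Figure D5:**
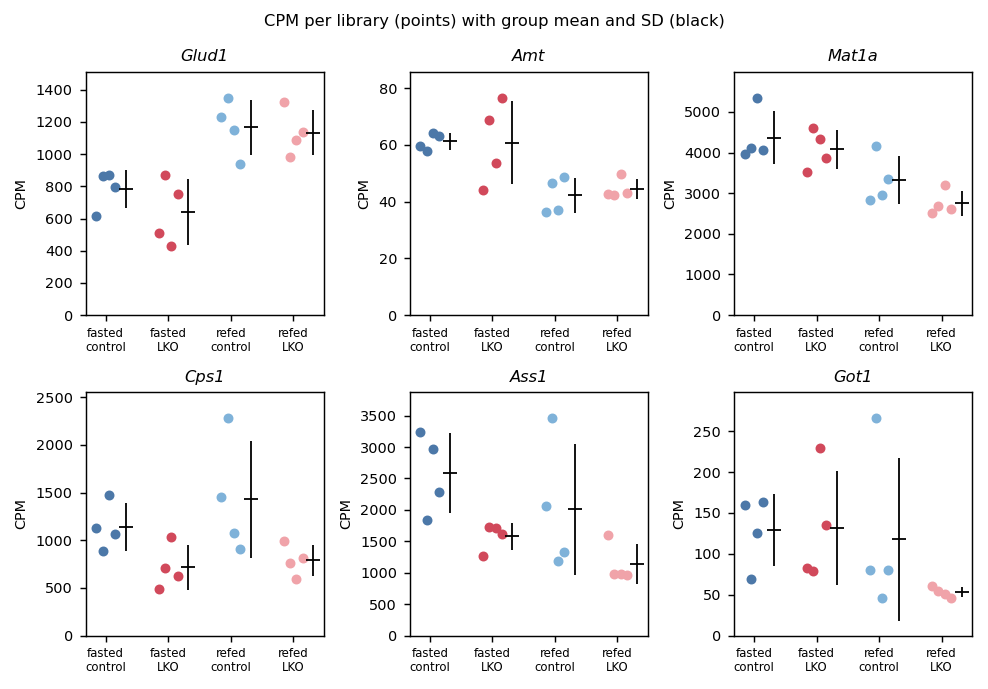
Scaled counts (CPM) of Glud1, Amt, Mat1a, Cps1, Ass1 and Got1 in each library (points, by group) with the group mean and SD in black. For Glud1 all refed points lie above all fasted points of the same genotype, and S49 stands above the other refed control libraries for Cps1, Ass1 and Got1.

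Other genes of the same pathways were examined from a list of 92, of which 87 passed the filter. In the fasted comparison 20 of the 87 were called, where 12.2% of all genes were. Of these 18 were lower in LKO (6.48% of all genes) and 2 higher (5.75%), and 64 of 87 had a lower level (47.5% of all genes), with a median of −0.24 against 0.02. Aromatic amino acid genes were among the falls. Afmid (−1.24, adjusted p = 0.0039) and Kyat1 (−0.93, adjusted p = 0.00367), both of the kynurenine route, fell, as did Ido2 (−0.88, adjusted p = 0.00777) and Qprt, which uses the quinolinate formed from Haao's product (−0.41, adjusted p = 0.0241). Of the genes around the urea cycle, 1 of 8 was called: Glul, the glutamine synthetase of pericentral hepatocytes, fell from 1318 ± 226 to 734 ± 138 CPM (log2 fold change −0.84, SE 0.17, adjusted p = 0.00453). Among 14 amino acid transporters 3 fell, Slc3a1 (−1.33, adjusted p = 0.0169), Slc1a2 (−1.05, adjusted p = 0.00023) and Slc6a13 (−0.35, adjusted p = 0.0474). Slc1a2, a glutamate transporter, fell in the refed state as well (log2 fold change −0.82, SE 0.11, adjusted p = 0.00103).

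In proline and glycine breakdown, Aldh4a1, which acts after Prodh, fell by 0.60 on the log2 scale (adjusted p = 0.0131). Sardh, which demethylates sarcosine, the product of Gnmt, fell from 1514 ± 152 to 897 ± 164 CPM (log2 fold change −0.75, SE 0.15, adjusted p = 0.00367). Of 12 further sulfur genes 3 fell and 2 rose. Ethe1 (−0.89, adjusted p = 0.0033) and Sqor (−0.64, adjusted p = 0.00665), which oxidise sulfide in mitochondria, were lower, and so was Mpst (−0.44, adjusted p = 0.0295). Mat2b (0.37, adjusted p = 0.00467) and Chdh (0.45, adjusted p = 0.0348) were higher. Of 14 regulators 1 was called, Cebpb, a transcription factor of the fasting response (log2 fold change −0.76, SE 0.24, adjusted p = 0.0481). In the refed comparison 4 of the 87 were called, 2 in each direction, a share near the 3.63% of all genes. Besides Slc1a2, the taurine transporter Slc6a6 was lower (−0.56, adjusted p = 0.044), and among the higher genes was Trp53 (0.44, adjusted p = 0.031).

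Refeeding changed 17 of these further genes in control mice (4 higher, 13 lower) and 15 in LKO mice (5 higher, 10 lower), shares near the 15.4% and 18.1% of all genes. In LKO mice Ppm1k, the phosphatase that activates the branched-chain ketoacid dehydrogenase, fell (log2 fold change −1.20, SE 0.18, adjusted p = 0.000403), as did Slc25a22, a mitochondrial glutamate carrier (log2 fold change −1.12, SE 0.17, adjusted p = 0.000359). Both also fell in control mice (−0.56, adjusted p = 0.0456, and −0.51, adjusted p = 0.0478). Aspg, an asparaginase (−0.80 in control and −0.58 in LKO), Cdo1, the cysteine dioxygenase (−0.71 and −0.46), and Slc7a2, a carrier of arginine and lysine (−0.85 and −1.01), fell with refeeding in both genotypes. Their adjusted p ran from 0.00643 to 0.0445. Called in control mice only, Agxt fell (−0.66, adjusted p = 0.00244), and called in LKO mice only, Aass, the entry enzyme of lysine breakdown, fell (−0.68, adjusted p = 0.00862) and Ido2 rose (0.88, adjusted p = 0.00474). Whether these responses differ between the genotypes was tested by the interaction, which called none of the 87 (18 at an unadjusted p under 0.05).

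Markers of cell types were measured beside these results. Of all genes, 6.48% were called lower and 5.75% higher in fasted LKO. Of 7 tested hepatocyte markers 5 were lower in fasted LKO, with Ttr (−0.59) and Fgb (−0.51) called, and their sum was 71804 to 79722 CPM in fasted control and 61478 to 70131 CPM in fasted LKO. When refed it was 70094 to 86915 CPM in control and 62361 to 76325 CPM in LKO. Many urea cycle and nitrogen genes are periportal, and of 8 periportal markers 4 were lower in fasted LKO with 1 called, Hsd17b13, which was higher (0.58). The periportal sum was 3835 to 5145 CPM in fasted control and 4263 to 7643 in fasted LKO. Pck1, a gluconeogenic gene that was not called (log2 fold change 0.78, SE 0.28, adjusted p = 0.0836), took much of this sum, and without it the ranges were 2066 to 2536 and 1893 to 2559 CPM. All 8 pericentral markers were lower in fasted LKO and 4 were called (Glul and Slc1a2, which are also on the list of further genes, Cyp1a2 and Gulo). The pericentral sum was 14674 to 18737 CPM in fasted control and 11058 to 17312 in fasted LKO. In the refed groups the periportal sums were 3929.9 to 5327 and 4523 to 5293 CPM, and the pericentral sums 13805 to 17105 and 12022 to 14786 CPM, in control and LKO.

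Lymphocyte and plasma cell markers were higher in fasted LKO in 7 of 7, with Jchain and Igkc called, and summed to 20.1 to 42.8 CPM in fasted control and 76.5 to 199 CPM in fasted LKO. In the refed state the sums were 21.9 to 36.2 and 116 to 231 CPM. Adipocyte markers summed to 162 to 253 CPM in fasted control and 255 to 482 in fasted LKO, while Adipoq, Lep and Plin1, which define that cell type, did not pass the filter on low counts. Of the 5 tested 3 were higher, 2 of them called (Cidec and Lpl), and 2 were lower, with Cfd called (−3.45). Refed, the adipocyte sums were 88.8 to 212 CPM in control and 113 to 159.9 CPM in LKO. Macrophage markers spread from 231 to 862 CPM within refed control, with the highest sum in S49, and from 244 to 368 CPM within refed LKO. All 8 were lower in refed LKO (median −0.54) and none was called, and 6 of 8 were lower in fasted LKO (median −0.05). Red blood cell markers were lower in fasted LKO in 7 of 7 (median −0.76), with Alas2 called, and summed to 384 to 1270.0 CPM in fasted control and 301 to 523 CPM in fasted LKO. On refeeding, 15.4% of all genes were called in control and 18.1% in LKO mice. Of 11 circadian clock genes 4 were called in each genotype, 2 higher and 2 lower. Their sums were 509 to 672 and 339 to 405 CPM in fasted and refed control, and 332 to 614 and 301 to 472 CPM in fasted and refed LKO. Proliferation markers summed to 21.1 to 32.4 CPM in refed control and 55.9 to 153 CPM in refed LKO. Of these markers 5 of 7 were called higher, against 2.28% of all genes. The part of these cell types and clock genes in the changes of the 42 genes was not tested.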

How the data were processed

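Poly-A RNA from liver was sequenced after random hexamer priming with dUTP, per the labels' protocols. HISAT2 2.0.5 and the build mm39 are named in the submitters' processing notes. The counting tool, annotation, use of strand and treatment of reads shared with pseudogenes are not given in the sources used here. The authors deposited 4 tables of 8 libraries with raw read counts per gene, their own log2 fold changes and adjusted p-values, and gene lengths (another unit, bases). The deposited log2 values and p-values served only as a comparison. The largest difference between a deposited log2 fold change of the 42 genes and the one computed here was 0.0098. Another 64 per-library columns were left unused. Count columns match no sample title, and the table headings gave each one's group.

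Joining the tables by gene identifier gave 25803 genes. Counts were tested in R 4.3.3 with edgeR 4.0.16 after filterByExpr (14488 genes) and TMM scaling (0.941 to 1.07). The fit was glmQLFit with 4 groups as a factor over 16 libraries, with glmQLFTest for 5 contrasts. The fasted and refed genotype contrasts were also run on simulated counts with changes placed in fasted LKO only, a result not reported here. The refeeding contrasts and the interaction were not checked in this way. A gene was called at a Benjamini-Hochberg adjusted p under 0.05. CPM use the TMM-scaled total. The SE is the log2 fold change divided by the square root of F. Alternatives were other scalings and filters, DESeq2 1.42.0, limma-voom (limma 3.58.1), only the 8 libraries compared, and leaving out each library. Any of the 42 genes could be named. Of further genes, at most 4 a list were named, called ones with the largest change first. Slc6a13, Slc6a6, Qprt, Mpst, Aldh4a1 and Chdh lie outside this rule and were named after their values were seen. Some further genes that the rule picks are counted but not reported here by name. Values per library are given for called genes and for a few others chosen after their values were seen, and TGACG and TATAAA were added to the motif search after its first result. The genes and lists were chosen with earlier results of these data known. Library totals ran from 14721601 to 24618230 counts, and the spread between libraries is given as SD or SE.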

Additional observations from a re-analysis of the deposited data

Results flagged for a closer look

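Each of the 42 genes was examined in each of the 4 groups for a library far from the other three of its group. In 10 of 168 such sets the gap exceeded Dixon's critical value for 4 samples, where chance gives about 1 in 20. The refed LKO library S52 held 4 of the 10: it was the highest of its group for Ass1 (1607 CPM), Gldc (157 CPM), Uroc1 (468 CPM) and Dbt (60.1 CPM). The refed control library S49 was the highest of its group for Got1 (266 CPM) and Uroc1 (495 CPM). Bckdha was highest in refed control library S51 (81.3 CPM), Amt in refed LKO library S54 (49.7 CPM) and Mat1a in fasted control library S42 (5344 CPM). The fasted LKO library S44 was the lowest of its group for Dbt (33.1 CPM).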

How the results depend on the processing

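The number of the 42 genes called in fasted LKO against control was 9 and became 14 once genes under a mean of 5 CPM were left out, 18 with DESeq2 and 14 with limma-voom. Leaving out 1 library gave 5 to 17. In the refed comparison 1 became 5 with DESeq2 and 2 with only the 8 libraries compared, and 0 to 3 without 1 library. For refeeding in control mice 4 became 7 with DESeq2 and 1 to 7 without 1 library. For refeeding in LKO mice the 3 became 2 to 6 without 1 library. The interaction called 0 in every alternative that was run. A setting chosen after seeing the data left out both S44 and S49: it called 6 in the fasted comparison, 0 in the refed comparison, 11 for refeeding in control mice, 7 for refeeding in LKO mice and 0 in the interaction. All 16 libraries were fitted together, so leaving out a library can also move contrasts that do not use it, through the shared estimate of spread. The cause of these moves was not tested. Of the single calls, Gls2, Gpt2, Haao and Prodh in the fasted comparison and Glud1 and Mat1a for refeeding in LKO mice held in all 24 alternatives. Over the 17 calls, 65 of 408 recomputed values missed the threshold and 0 changed sign. Each of the other 11 calls was lost in at least 1 alternative. No paired analysis was possible because the count columns carry no replicate number. All 42 genes passed the filter on low counts, and the number called differed between tools on the same 16 libraries.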

Other observations

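The median log2 deviation of the 42 genes from their mean over the 16 libraries ran from 0.13 to 0.39 in fasted control, from −0.47 to 0.03 in fasted LKO, from −0.19 to 0.38 in refed control and from −0.34 to 0.03 in refed LKO. Fasted control libraries therefore lay above all fasted LKO libraries, and refed control library S50 lay below refed LKO libraries S52 and S53. Refed control library S51 (−0.07) also lay below S52 (0.03). In S49, which was highest for 32 of the 42 genes, the 6 urea cycle genes summed to 8328 CPM, above the sum in each of the other 15 libraries, and macrophage markers summed to 862 CPM, also the highest of the 16. In S44, lowest for 34 genes, the urea cycle sum was 3001 CPM, under all but S54, and the sum of tested hepatocyte markers was 61478 CPM, the lowest of the 16. The part of these marker levels in the position of S44 and S49 was not tested.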
